A study of Homo sapiens with 24 samples.

Results

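MicroRNA genes were examined for Myc binding in MIA PaCa-2 cells, an established human pancreatic carcinoma line that carried a doxycycline-inducible MED30. The members were all 1911 genes that RefSeq annotates as microRNA on chromosomes 1 to 22 and X of hg38, of 59094 annotated genes of all kinds there. A microRNA gene was called marked when a peak of a Myc library reached within 1 kb of its span, and the 223 microRNA genes with a protein-coding gene end within 1 kb were told apart from the other 1688. Binding was measured by CUT&Tag, in which a transposase is tethered to the antibody and inserts sequencing adapters next to the target, so that occupied places pile up as peaks of fragments.

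The series holds libraries of cells with inducible MED30 and of cells with an inducible short hairpin against MED30. MED30 is a subunit of the Mediator complex, which links transcription factors to RNA polymerase II. Both groups used here hold the same inducible MED30 construct and have 1 library each: Myc with doxycycline, titled day 5, and Myc with no doxycycline. The general protocol mentions 2 days with doxycycline, which differs from the title, and the title was used. Of the 24 samples, 22 were not analysed here, IgG controls and a Myc library of these cells titled day 1 included. Myc peaks were not screened against IgG signal. With 1 library per condition no difference has a replicate check and no test was made. Intervals are exact 95% intervals, Clopper-Pearson for shares and Poisson for fragments. They cover counting error only and treat neighbouring genes as separate draws.

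A microRNA is cut from a hairpin within a longer transcript by DROSHA in the nucleus and by DICER1 in the cytoplasm. The mature strand then guides an Argonaute protein to messenger RNAs, mostly through its seed, bases 2 to 8. Many microRNAs lie in introns of coding genes or in long non-coding host transcripts and are made with them, so the start that drives a microRNA can be far from the hairpin. Myc, which binds the E-box CACGTG as a dimer with MAX, is known for switching on the miR-17-92 cluster and for lowering let-7, miR-15/16, miR-29 and miR-34 microRNAs in tumour cells. The mature sequences below, taken from RefSeq (GRCh38.p14) and given 5′ to 3′ with the seed in capitals, belong to the families and genes that the results turn on.

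The let-7 family was represented among the marked genes by MIRLET7I at chr12:62603686-62603769. Its seed was shared by 11 mature names from 14 genes, of which 1 was marked. The let-7i strand is set beside let-7a, which comes from 3 genes that were not marked.
let-7i-5p: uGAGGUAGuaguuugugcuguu
let-7a-5p: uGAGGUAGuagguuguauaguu

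MIR92B at chr1:155195177-155195272 was marked, whereas 7 genes in all make the 6 mature names with its seed and only this 1 of them was marked. Its strand is set beside those of the miR-17-92 and miR-106b-25 clusters.
miR-92b-3p: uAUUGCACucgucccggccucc
miR-92a-3p: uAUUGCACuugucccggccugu
miR-25-3p: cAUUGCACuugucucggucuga

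The growth-promoting seed of miR-17 was shared by 8 mature names from 8 genes, and 0 of these genes had a Myc peak within 1 kb in either library. Over all microRNA genes 4.81% were marked at day 5 and 2.25% without doxycycline, so 0 or 1 in sets this small is near the general share.
miR-17-5p: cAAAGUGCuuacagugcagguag
miR-106b-5p: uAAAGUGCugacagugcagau
miR-93-5p: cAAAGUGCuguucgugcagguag

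Of the remaining marked genes, MIR378A inside PPARGC1B, MIR191 inside DALRD3 and MIR584 inside SH3TC2 are shown because their peaks lie at the starts of their hosts. Of the 99 genes marked in either library, 88 had mature entries, with 123 mature names and 122 seeds, and the 1 seed that came back was that of miR-3180. How often seeds come back in sets of unmarked microRNA genes was not counted, so this is a description only.
miR-378a-3p: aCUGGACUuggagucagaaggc
miR-191-5p: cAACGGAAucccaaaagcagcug
miR-584-5p: uUAUGGUUugccugggacugag

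Start windows that the peaks overlapped are shown for 4 transcripts, on the strand of the gene, with CACGTG in capitals. Each runs from 250 bases before to 50 bases after a RefSeq start (GRCh38.p14). HSP90B1 (chr12:103930160-103930459, plus strand) lies at MIR3652, STMN1 (chr1:25906370-25906669, minus strand) at MIR3917 and SBNO1 (chr12:123364798-123365097, minus strand) at MIR8072. MIRLET7IHG (chr12:62602493-62602792, plus strand) is the host transcript of MIRLET7I and has no CACGTG in this window. All 4 windows were overlapped in part or whole by a peak in both libraries. The start of SBNO1 lay outside the marking peak in both, and that of HSP90B1 outside it without doxycycline. The CACGTG of SBNO1 also lay outside the peak without doxycycline.
HSP90B1: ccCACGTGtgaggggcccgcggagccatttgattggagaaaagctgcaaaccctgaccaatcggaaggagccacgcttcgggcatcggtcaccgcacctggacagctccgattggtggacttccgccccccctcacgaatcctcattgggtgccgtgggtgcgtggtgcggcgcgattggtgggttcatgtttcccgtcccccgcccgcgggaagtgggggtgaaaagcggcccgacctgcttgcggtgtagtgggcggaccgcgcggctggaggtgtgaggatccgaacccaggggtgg
STMN1: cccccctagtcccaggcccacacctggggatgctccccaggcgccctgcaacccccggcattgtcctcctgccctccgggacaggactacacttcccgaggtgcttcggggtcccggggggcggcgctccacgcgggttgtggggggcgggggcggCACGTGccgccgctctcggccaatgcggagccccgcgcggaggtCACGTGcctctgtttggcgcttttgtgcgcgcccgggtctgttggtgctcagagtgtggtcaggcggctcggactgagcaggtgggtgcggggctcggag
SBNO1: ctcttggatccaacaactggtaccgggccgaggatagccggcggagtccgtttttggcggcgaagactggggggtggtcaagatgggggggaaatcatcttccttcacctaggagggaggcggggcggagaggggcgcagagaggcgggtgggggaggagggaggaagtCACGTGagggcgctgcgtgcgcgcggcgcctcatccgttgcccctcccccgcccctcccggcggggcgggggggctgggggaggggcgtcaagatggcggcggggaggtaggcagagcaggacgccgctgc
MIRLET7IHG: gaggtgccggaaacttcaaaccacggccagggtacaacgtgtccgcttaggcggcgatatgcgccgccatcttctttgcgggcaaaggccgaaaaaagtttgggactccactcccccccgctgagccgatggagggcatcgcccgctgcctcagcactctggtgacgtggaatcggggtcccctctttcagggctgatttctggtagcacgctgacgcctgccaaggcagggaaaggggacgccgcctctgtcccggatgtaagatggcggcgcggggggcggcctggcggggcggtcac

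CACGTG, a palindrome that reads alike on both strands, was looked for in all 34961 RefSeq start windows of this kind, many of which overlap. It was in 17 of 96 windows (17.7%, 10.7 to 26.8) that lay under a peak marking a microRNA gene. These windows belonged to 83 genes and stood near 60 microRNA genes. A window counted as under a peak when at least 1 base of it was overlapped. The share was 7.27% over all windows. It was 13.6% of windows overlapped by any day 5 peak, 15.8% of those overlapped by any peak without doxycycline, and 5.82% of windows with neither. The windows at microRNA genes thus held the letters about as often as windows under Myc peaks in general, within the width of their interval. The related letters CACGCG, looked for on both strands, were in 24.0% of the windows at marked microRNA genes, in 22.9% of windows under day 5 peaks, in 24.4% of those under peaks without doxycycline and in 11.4% of all windows. STMN1, which encodes a protein that takes microtubules apart, had CACGTG 2 times in its window. A match is a description of letters and not a measured site.

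Few microRNA genes lay near a Myc peak, and most that did lay at the start of a coding gene. At day 5, 92 of 1911 microRNA genes (4.81%, 3.90 to 5.87) were marked, and without doxycycline 43 (2.25%, 1.63 to 3.02). By the same rule 14.7% of all annotated genes were marked at day 5 and 7.95% without doxycycline, but most of those are far longer than a hairpin, whose median span was 80 bp. The longer day 5 list held 6718 peaks on these chromosomes and the other list 3468, and 1.35% of the day 5 peaks and 1.27% of the peaks without doxycycline lay within 1 kb of a microRNA gene. Joined into 1595 loci of genes within 10 kb, 89 loci were marked at day 5 and 42 without doxycycline.

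A coding gene end within 1 kb separated the members. Of the 223 microRNA genes with one, 60 (26.9%, 21.2 to 33.2) were marked at day 5 and 31 (13.9%, 9.64 to 19.1) without doxycycline. Among the 19970 protein-coding genes themselves, 27.5% had a peak within 1 kb of either end at day 5 and 14.5% without doxycycline. This is not a like comparison, since every coding gene has a start and some of the 223 lay near a far end only. Starts and far ends are set apart below. Of the 1688 microRNA genes with no coding end nearby, 32 (1.90%, 1.30 to 2.67) were marked at day 5 and 12 (0.711%, 0.368 to 1.24) without doxycycline.

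The start of the coding gene, not its far end, carried the peaks. Of 106 microRNA genes within 1 kb of a coding gene start, 48 (45.3%, 35.6 to 55.2) were marked at day 5 and 24 (22.6%, 15.1 to 31.8) without doxycycline. Of 66 that were near a far end only, 1 was marked at day 5 and 2 without doxycycline, and of 51 near an end whose strand was not in the tables used, 11 were marked at day 5 and 5 without doxycycline. Over all 15812 coding genes with a known strand, 28.4% of starts had a peak within 1 kb at day 5 and 15.1% without doxycycline. For far ends the shares were 1.98% at day 5 and 1.01% without doxycycline. Counted by start, 118 coding gene starts had a microRNA gene within 1 kb, and 58 of them (49.2%, 39.8 to 58.5) had a peak at day 5 and 30 (25.4%, 17.9 to 34.3) without doxycycline. These intervals lay above the shares of all coding starts in both libraries, but neighbouring starts that share a peak were counted separately. Counted by microRNA gene, the lower bound without doxycycline, 15.1%, was level with the share of all starts. Whether other properties of these genes, such as their expression, set the difference was not tested.

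**Figure D1:**
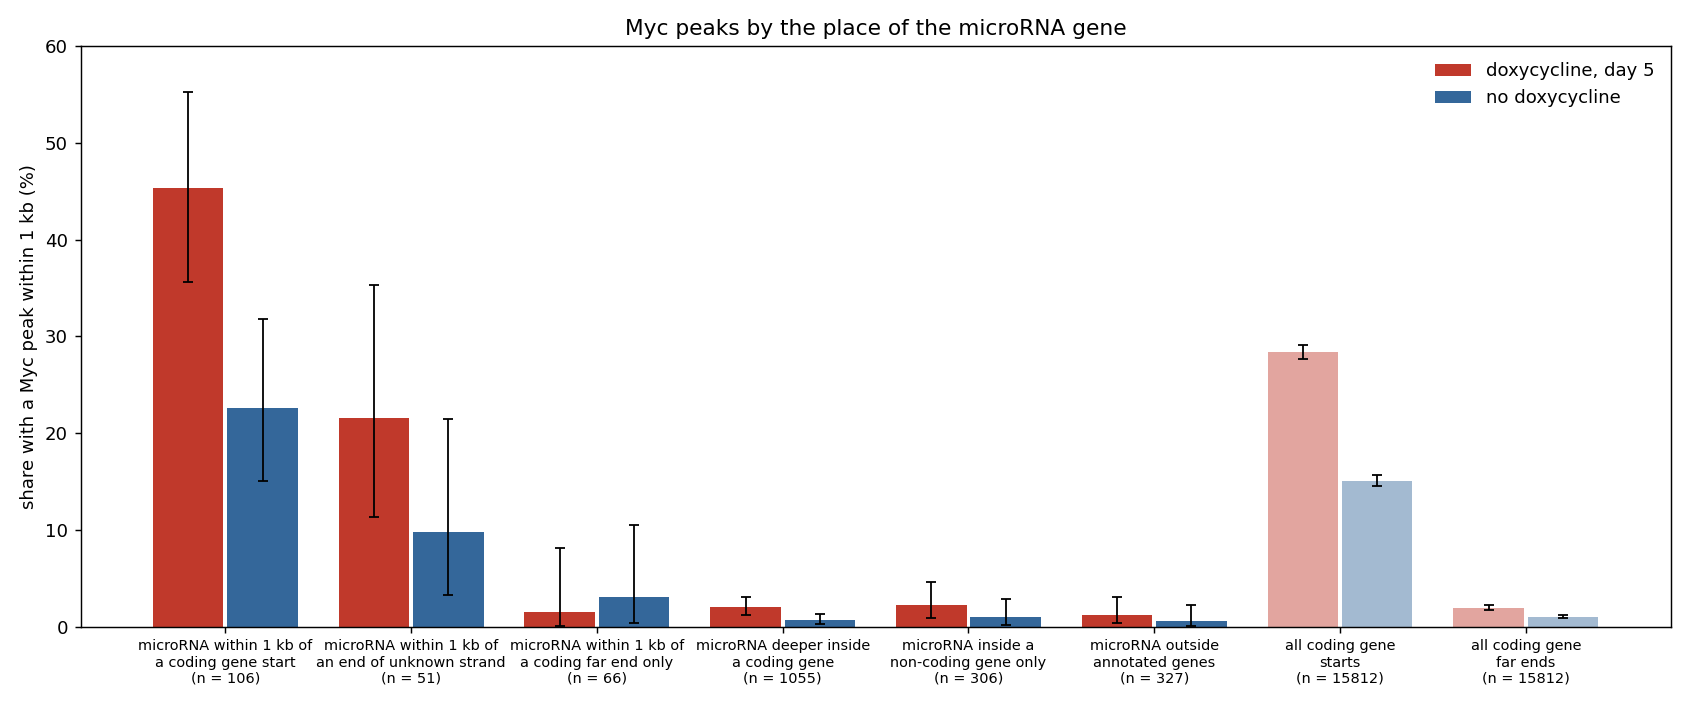
Share of genes with a Myc peak within 1 kb (%), at day 5 of doxycycline (red, left) and with no doxycycline (blue, right), for microRNA genes by place and, in pale bars, for all coding gene starts and far ends; bars have exact 95% intervals. MicroRNA genes near a coding start stand at 45.3% at day 5 and 22.6% without doxycycline, while those deeper inside genes or outside them stay under 3% in both libraries.

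Deeper inside coding genes, more than 1 kb from any coding end, 21 of 1055 microRNA genes (1.99%, 1.24 to 3.03) were marked at day 5 and 7 (0.664%, 0.267 to 1.36) without doxycycline. Inside non-coding genes only, 7 of 306 were marked at day 5 and 3 without doxycycline, and outside annotated genes 4 of 327 and 2 of 327. The far larger part of the intronic and intergenic hairpins thus had no Myc peak beside them at this depth. Other short RNA genes differed among themselves. Of 1114 snoRNA genes with no coding end within 1 kb, 19 were marked at day 5 and 12 without doxycycline. Of the 387 tRNA genes with no coding end within 1 kb, 87 (22.5%) were marked at day 5 and 57 (14.7%) without doxycycline, and of 143 such snRNA genes 33 (23.1%) and 19 (13.3%). Unlike most microRNAs, tRNA and snRNA genes carry their own promoters. Whether this bears on the shares was not tested.

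The position of the summits was measured from the microRNA gene and from the nearest coding gene end. The median summit of a marking peak lay 451 bp from the microRNA gene at day 5 and 512 bp without doxycycline, and 322 bp at day 5 and 297 bp without doxycycline from the nearest coding gene end. Gene by gene, the summit was closer to the coding end for 46 of 92 genes at day 5 and 25 of 43 without doxycycline. The rule keeps only peaks within 1 kb of the microRNA gene, which limits the first distance. Of the 92 genes marked at day 5, 61 had the summit within 1 kb of a coding gene end, at 49 of them the nearest end was a start, at 0 a far end and at 12 an end of unknown strand. Without doxycycline 32 of 43 did, with 23 starts, 2 far ends and 7 of unknown strand. A peak overlapped the hairpin itself for 32 genes at day 5 and 12 without doxycycline. With a window of 10 kb, 94 of 223 microRNA genes near a coding end (42.2%) were reached at day 5 and 54 (24.2%) without doxycycline, against 223 of 1688 others (13.2%) at day 5 and 104 (6.16%) without doxycycline.

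**Figure D2:**
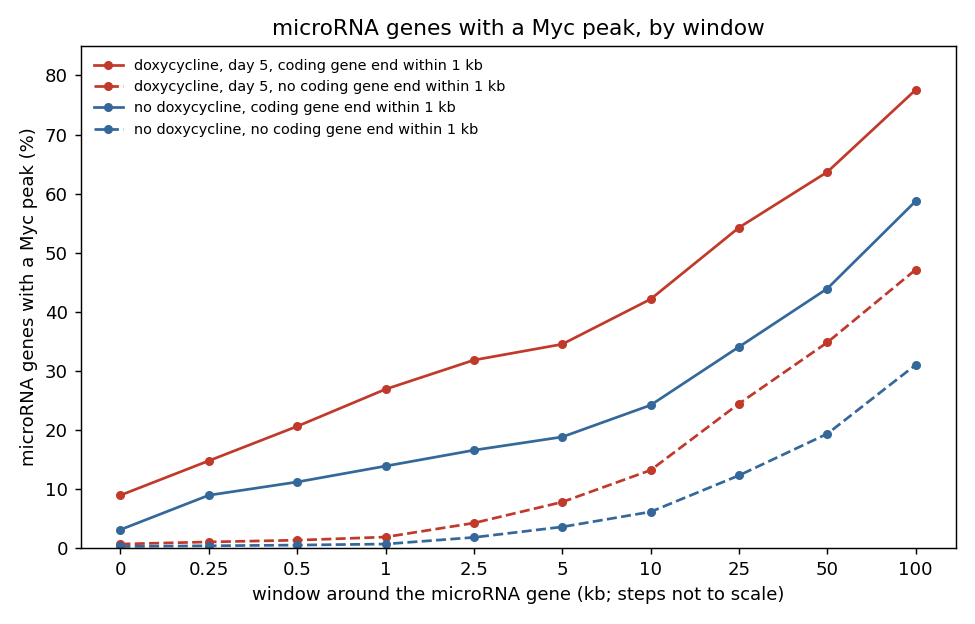
Share of microRNA genes reached by a Myc peak (%), against the window around the gene in kb (steps not to scale), at day 5 (red) and with no doxycycline (blue), for genes with a coding gene end within 1 kb (solid) and without one (dashed). In each library the solid line lies above the dashed line at every window, and in each class day 5 lies above no doxycycline.

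At coding gene ends, the most highly ranked day 5 peaks included those of POLR3D and NPM1, ranked by the −log10 q-value that the authors deposited. MIR320A, at chr8:22244966-22245037, lies 96 bp from POLR3D, a subunit of RNA polymerase III, and its peak had 52 fragments over the summit at day 5 (38.8 to 68.2) and 28 without doxycycline (18.6 to 40.5). MIR3912 lies 356 bp from NPM1, a nucleolar chaperone of ribosome assembly, with 45 fragments at day 5 (32.8 to 60.2) and 24 without doxycycline (15.4 to 35.7). In both of these the day 5 library had more fragments, with intervals that overlapped.

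MIR3652 lies in HSP90B1, which encodes the chaperone of the endoplasmic reticulum GRP94, and its peak overlapped the hairpin at day 5 and lay 158 bp away without doxycycline, with 36 fragments at day 5 (25.2 to 49.8) and 29 without doxycycline (19.4 to 41.6). For MIR6789, inside PLEKHJ1, the numbers were 34 at day 5 and 24 without doxycycline. MIR584 in SH3TC2, a gene mutated in an inherited neuropathy, had 30 fragments at day 5 (20.2 to 42.8) and 25 without doxycycline (16.2 to 36.9), with the day 5 summit 7 bp from the gene's start. ATF2, a leucine zipper transcription factor, holds MIR933, with 20 fragments at day 5 and 10 without doxycycline, and UNK, an RNA-binding zinc finger protein, stands beside MIR4738, with 22 at day 5 and 10 without doxycycline. MIR1289-1 lies in GDF5, a growth factor of joints, and its summit near CEP250, a centrosome protein. It had 19 fragments at day 5 and 18 without doxycycline, nearly alike.

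MIR191 showed the largest ratio among genes marked in both libraries. It lies at chr3:49020618-49020709 in DALRD3, a factor of tRNA methylation, and within the span of NDUFAF3, which assembles respiratory complex I. Its summit had 28 fragments at day 5 (18.6 to 40.5) and 11 without doxycycline (5.49 to 19.7), a ratio of 2.55, and the summit lay 243 bp from the start of DALRD3 at day 5 and 364 bp without doxycycline. The intervals overlapped slightly. MIR92B, the miR-92 relative shown above, lies 316 bp from the far end of THBS3, which encodes a thrombospondin, and inside THBS3-AS1. It had 25 fragments at day 5 (16.2 to 36.9) and 13 without doxycycline (6.92 to 22.2), under a peak that ended just before a RefSeq start of THBS3-AS1.

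Of the 32 day 5 genes with no coding gene end within 1 kb, 5 had the summit of their peak within 1 kb of a coding gene end, as did 2 of 12 without doxycycline. MIR4258 lies 1012 bp from CKS1B, an essential partner of cyclin-dependent kinases, so it missed the class of coding ends by a few bases, and it had 62 fragments at day 5 (47.5 to 79.5) and 56 without doxycycline (42.3 to 72.7). MIR639 lies in TECR, an enzyme of very long chain fatty acid synthesis, with 18 fragments in each library. MIR378A at chr5:149732825-149732890 lies in the first part of PPARGC1B, a coactivator of mitochondrial genes, 2515 bp from its start. Its peak had 20 fragments at day 5 (12.2 to 30.9), with the summit 656 bp from that start, and the nearest peak without doxycycline was 374 kb away. MIR378A was therefore listed at day 5 and not without doxycycline.

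MIR1204 at chr8:127795962-127796028 is inside PVT1, the long non-coding gene next to MYC, 53011 bp from MYC itself, and had 22 fragments at day 5 (13.8 to 33.3) and 14 without doxycycline (7.65 to 23.5). MIR4521, outside annotated genes and 1341 bp from BORCS6, a part of the complex that moves lysosomes, had 24 at day 5 and 18 without doxycycline. In GALK2, an N-acetylgalactosamine kinase, MIR4716 had 14 at day 5 and 11 without doxycycline. MIR4519 in BCL7C, a subunit of SWI/SNF chromatin remodellers, had 16 at day 5 and 15 without doxycycline. MIR935 in CACNG8, a partner of AMPA receptors, had 23 at day 5 only, but a peak without doxycycline lay 1064 bp away, just outside the window. MIR6737 in SLC39A1, a zinc transporter, had 21 at day 5 only, and MIR3180-1 had 15 at day 5 only. MIR3180-1 shares its mature strand with other genes of chromosome 16, so reads of these copies may not be told apart.

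MIR12136 stood apart from all other members. It lies at chr1:632615-632685, in a stretch where the nuclear genome carries a copy of mitochondrial DNA, and its highest peak had 235 fragments at day 5 (206 to 267) and 424 without doxycycline (385 to 466). It ranked 3 among all day 5 peaks and 1 without doxycycline, and among the 36 genes marked in both libraries it was the only one whose intervals did not overlap. On the mitochondrial chromosome itself the day 5 list held 3 peaks and the list without doxycycline 5. The part of mitochondrial fragments in this peak was not tested.

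Of the 99 genes marked in either library, 36 were marked in both, 56 at day 5 only and 7 without doxycycline only. Over all annotated genes the numbers were 4141, 4546 and 556. The genes marked in both had taller peaks, with a median of 21.5 fragments at day 5 (quartiles 14 and 25.8) and 13 without doxycycline (9.75 and 18.5). Those marked at day 5 only had a median of 10 fragments (8 and 13.3), with 26 of 56 under 10, and those marked without doxycycline only a median of 8, with 4 of 7 under 10. Over all peaks the median was 12 at day 5 (8 and 17) and 11 without doxycycline (8 and 15), so absence from a list at such heights is not absence of binding. When the day 5 list was cut to as many peaks as the other list, 49 genes were marked at day 5 and 43 without doxycycline, 17 at day 5 only and 11 without doxycycline only. Of the 223 microRNA genes near a coding end 14.3% were then marked at day 5 and 13.9% without doxycycline.

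Among the 36 genes, 31 had more fragments at day 5, 3 had equal numbers and 2 had fewer. The last 2 were MIR12136 and MIR12119, with 12 at day 5 and 13 without doxycycline. The median ratio of day 5 to no doxycycline over the 35 peak pairs at microRNA genes was 1.42, and over all 2846 overlapping peak pairs it was 1.43. The caller's local background around the same summits had a median ratio of 1.72 at microRNA genes and 1.60 over all pairs. The ratio at microRNA genes was thus close to that of the whole list, and the local background had a ratio no smaller. The part of depth in these numbers was not tested.

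**Figure D3:**
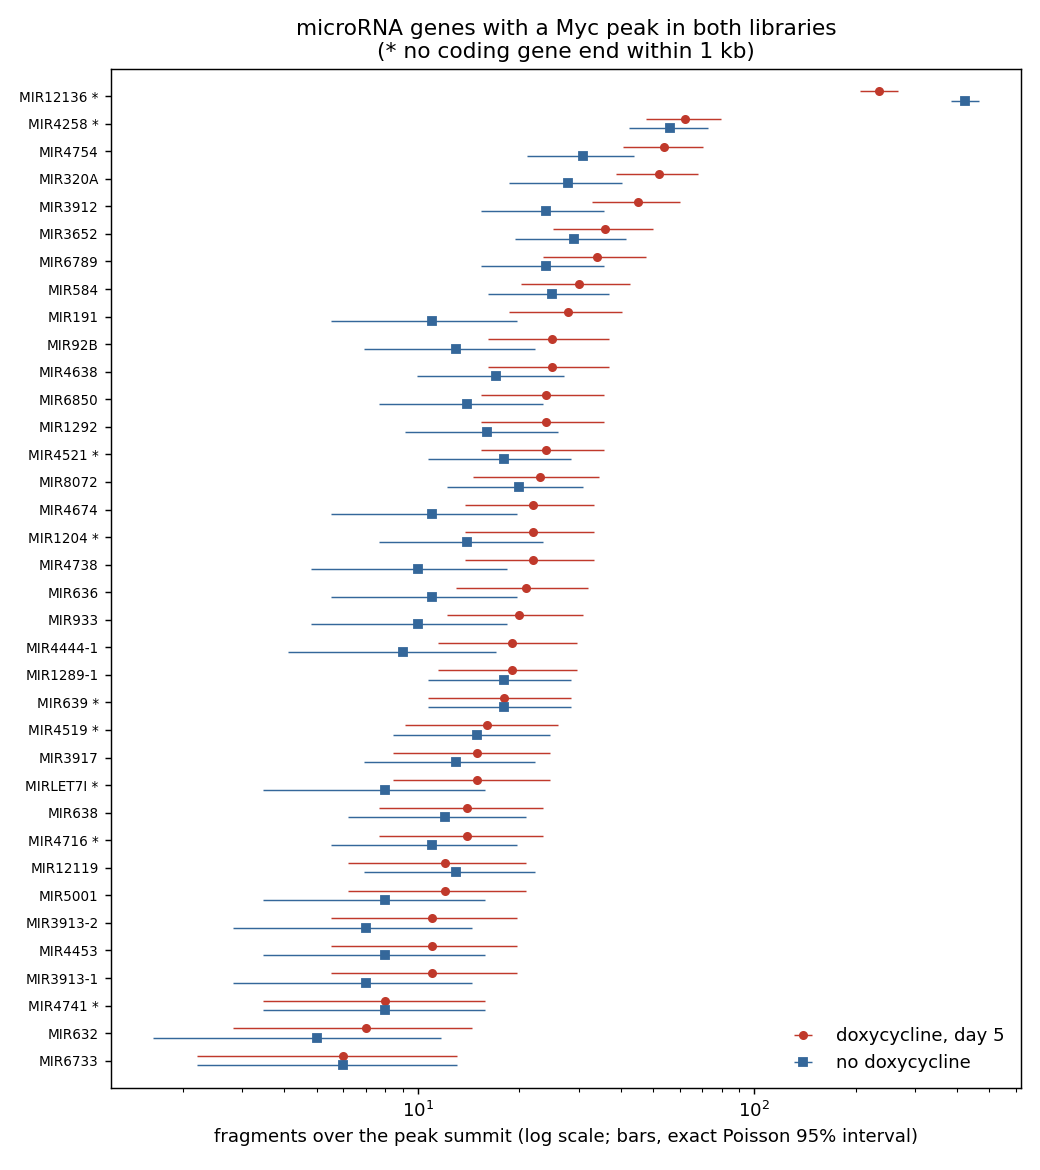
Fragments over the summit (log scale) for the 36 microRNA genes marked in both libraries, at day 5 (red circles) and with no doxycycline (blue squares), with exact Poisson 95% intervals; an asterisk marks genes with no coding gene end within 1 kb. The intervals overlap for all genes but MIR12136, at 235 fragments at day 5 and 424 without doxycycline.

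The highest-ranked genes marked at day 5 only included MIR378A, MIR935, MIR6737 and MIR3180-1, given above. MIR6831 in APBB3, an adapter that binds the amyloid precursor protein, had 30 fragments at day 5 (20.2 to 42.8), the most of this group, and its nearest peak without doxycycline was 15706 bp away. MIR3124 beside SH3BP5L had 18. MIR4999 lies beside RAB11B, a GTPase of recycling endosomes, and had 19 fragments, and MIR1181 in CDC37, which loads kinases onto HSP90, had 17. MIR3960 and MIR2861 shared 1 peak of 14 fragments near CDK9, the kinase that releases paused RNA polymerase II. Another shared day 5 peak, of 13 fragments, marked MIR3190 and MIR3191 in BBC3, a cell death protein.

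The 7 genes marked without doxycycline only had between 6 and 15 fragments. MIR4710, outside annotated genes, had 15 (8.40 to 24.7) and MIR936, in the skin collagen gene COL17A1, had 12 (6.20 to 21.0). MIR1244-1 lies at the far end of PTMA, which encodes prothymosin alpha, with 11 fragments, and MIR4437 in LINC01934 had 6. Of those at coding starts, MIR564 at TMEM42 had 8, MIR7706 at AKAP13, a kinase anchoring protein, had 7, and MIR3655 at IK, a splicing factor, had 6. Over all peaks without doxycycline the median was 11 fragments, with quartiles 8 and 15.

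Among the microRNA families that Myc is known to act on, nearly all hairpins lacked a peak within 1 kb. So did most microRNA genes, with 4.81% of all of them marked at day 5 and 2.25% without doxycycline. Lists this short cannot be told apart from those shares. Of the 15 microRNA genes of the miR-17-92 cluster and its paralogs, 0 were marked in either library. The closest peak was at chr13:91349056-91349406 inside MIR17HG, between its start at 91347687 and MIR17 at chr13:91350605-91350688. It had 15 fragments at day 5 and ended 1199 bp before MIR17. The nearest peak without doxycycline was 511 kb away. MIR18A, MIR19A, MIR20A, MIR19B1 and MIR92A1 follow MIR17, the last at 1908 bp from the day 5 peak. The whole cluster thus lay just outside the window at day 5.

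The sister cluster of MIR106B, MIR93 and MIR25 lies inside MCM7, a subunit of the replicative helicase. A peak at the start of MCM7, next to that of AP4M1, had 35 fragments at day 5 and 22 without doxycycline, 6464 bp at day 5 and 6660 bp without doxycycline from MIR106B. The third cluster, with MIR106A on chromosome X, had its nearest peak 379 kb away at day 5 and 881 kb away without doxycycline.

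In the let-7 and miR-98 family 1 of 12 genes was marked in each library, which a list this short cannot set apart from the share of all microRNA genes. MIRLET7I had 15 fragments at day 5 (8.40 to 24.7) and 8 without doxycycline (3.45 to 15.8), with the peak 475 bp away at day 5 and 824 bp without doxycycline. Both peaks cover the start of MIRLET7IHG at 62602743, the host whose window is printed above. The start of MIRLET7A1HG, host of MIRLET7A1, had a peak of 18 fragments at day 5 and none within 1 kb without doxycycline. HUWE1, a ubiquitin ligase that hosts MIR98 and MIRLET7F2, had 10 fragments at a start in each library.

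For the other listed families the counts were 0 in both libraries: miR-15, miR-16 and their relatives (8 genes), miR-29 (4), miR-26 and miR-30 (9), miR-34 (5), miR-23/24/27 (6) and miR-200 (5). Lists this short are too small for these counts to be told from the 4.81% of all microRNA genes marked at day 5 and the 2.25% without doxycycline. Several of their hosts had a peak. DLEU2, the host of MIR15A and MIR16-1 in a region often deleted in leukaemia, had 24 fragments at a start at day 5 and 17 without doxycycline, 32840 bp from MIR15A. NFYC, a subunit of the CCAAT-binding factor that holds MIR30E and MIR30C1, had 27 at day 5 and 21 without doxycycline. MIR200C, known for keeping cells epithelial, lay 1485 bp from a peak with 34 fragments at day 5, and 1509 bp from one with 23 without doxycycline. PTPN6 was the coding gene nearest both peaks. Its own host MIR200CHG had no peak within 1 kb, with the nearest at 1031 bp at day 5 and 1055 bp without doxycycline.

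Of 10 listed microRNAs (those of miR-33, miR-103 and miR-107, miR-378a, which lie in metabolic genes, and those of miR-22 and miR-9), 1 was marked at day 5, MIR378A, and 0 without doxycycline. This list is also too short to be told from the share of all microRNA genes. The pantothenate kinases start the synthesis of coenzyme A, and their starts had peaks at PANK1 (host of MIR107) with 17 fragments at day 5 and 13 without doxycycline, and at PANK2 (MIR103A2) with 16 at day 5 and 13 without doxycycline. PANK3 (MIR103A1) had 9 at day 5 only. The sterol regulators SREBF1 (MIR33B), with 16, and SREBF2 (MIR33A), with 10, had peaks at day 5 only. MIR22 lay 2469 bp at day 5 and 2596 bp without doxycycline from a peak of 29 fragments at day 5 and 18 without doxycycline, beside the start of MIR22HG.

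The list of 21 microRNAs often raised in pancreatic carcinoma had 0 marked genes in both libraries. With 4.81% of all microRNA genes marked at day 5 and 2.25% without doxycycline, a count of 0 in lists of this size is near the general share. MIR21, an oncogenic microRNA inside VMP1, came closest, with a day 5 peak of 11 fragments 1933 bp away, and its nearest peak without doxycycline was 51.4 kb away. Acinar and islet microRNAs (8 genes) also had 0 marked genes in both, as did the lists of other tissues, with 26 muscle, liver, neuron and fibroblast microRNAs and 6 of leukocytes and red cells. Starts of broadly used hosts of these microRNAs did have peaks. HNRNPK, an RNA-binding protein that hosts MIR7-1, had 35 fragments at day 5 and 20 without doxycycline, though RMI1 was the coding gene nearest these peaks. R3HDM1, which hosts MIR128-1, had 27 at day 5 and 31 without doxycycline.

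**Figure D4:**
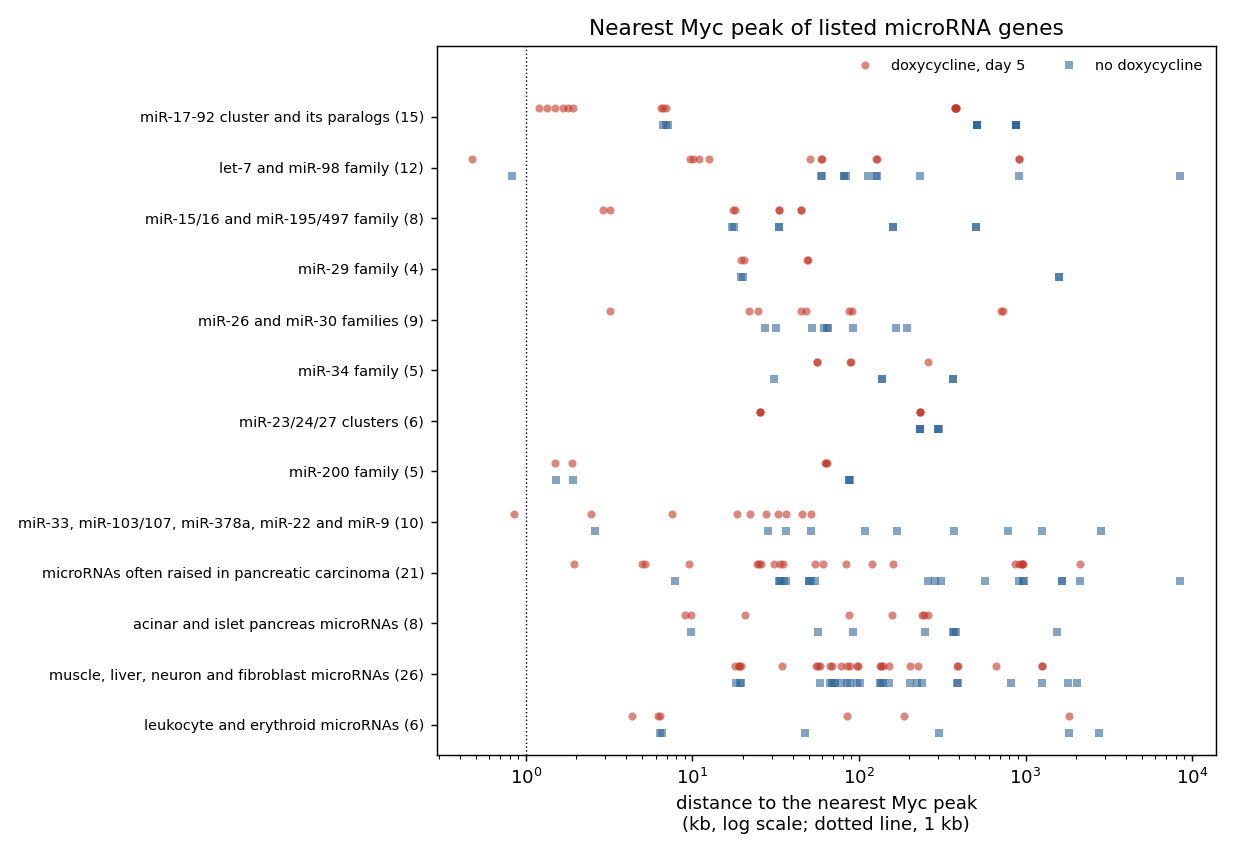
Distance from each listed microRNA gene to the nearest Myc peak (kb, log scale), by list with its number of microRNA genes, at day 5 (red circles) and with no doxycycline (blue squares); the dotted line is 1 kb. Left of the line stand MIRLET7I in both libraries and MIR378A at day 5, and the 6 genes of the miR-17-92 cluster lie between 1199 and 1908 bp at day 5.

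Host starts were marked far more often than the hairpins inside them. For 992 microRNA genes with a host on the same strand and a RefSeq start of it upstream, 330 (33.3%) had a peak within 1 kb of a host start at day 5 and 158 (15.9%) without doxycycline. Of the 330 at day 5, 290 had no peak within 1 kb of the microRNA. Counted once per host, 268 of 725 coding hosts (37.0%, 33.4 to 40.6) had a peak at a start at day 5 and 130 (17.9%, 15.2 to 20.9) without doxycycline. All 15811 coding genes with a listed start stood at 4762 (30.1%) at day 5 and 2530 (16%) without doxycycline. Long non-coding hosts had 29 of 126 (23.0%, 15.99 to 31.4) at day 5 and 10 (7.94%, 3.87 to 14.1) without doxycycline, and all 11383 long non-coding genes 10.2% at day 5 and 5.36% without doxycycline. A gene with several listed starts counted when any of them had a peak, and the number of starts was not matched.

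**Figure D5:**
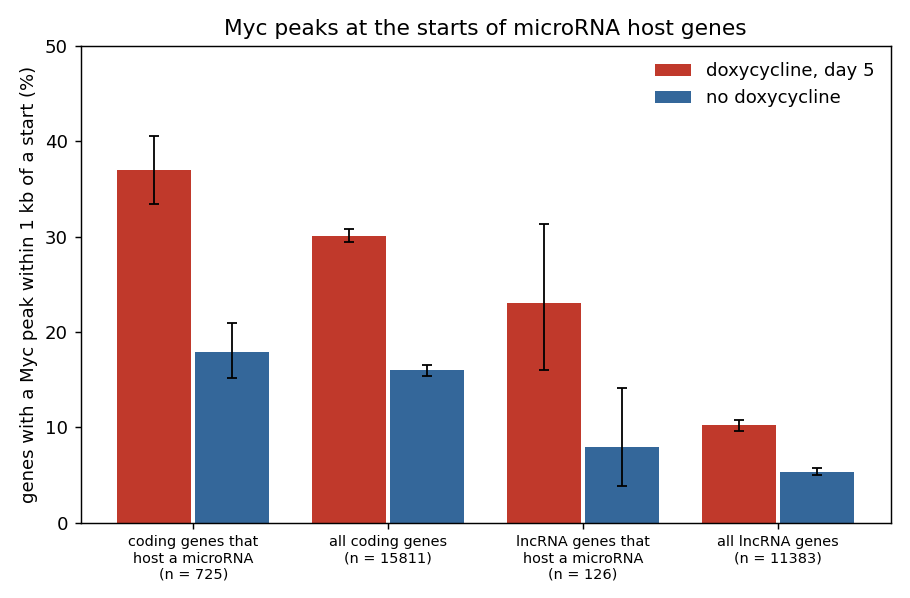
Share of genes with a Myc peak within 1 kb of a listed start (%), at day 5 (red, left) and with no doxycycline (blue, right), for coding and long non-coding genes that host a microRNA and for all genes of each kind; bars have exact 95% intervals. The intervals of hosts and of all genes do not overlap at day 5 for either kind, and they overlap without doxycycline for both kinds.

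The non-coding genes that RefSeq names as microRNA hosts were counted by either end. Of 87, 13 had a peak within 1 kb of an end at day 5 and 6 without doxycycline, and all 6 were in both. By the same rule 8.31% of all 18177 long non-coding genes had one at day 5 and 4.37% without doxycycline. MIR22HG had 29 fragments at day 5 and 18 without doxycycline. These peaks lay outside its span, 246 bp away at day 5 and 373 bp without doxycycline, and the coding gene nearest them was WDR81. MIR3677HG had 34 at day 5 and 11 without doxycycline. MIR762HG, with 16 at day 5 and 15 without doxycycline, and MIR4453HG, with 11 at day 5 and 8 without doxycycline, were close to even. MIR181A2HG had fewer at day 5, 9, and 13 without doxycycline. MIRLET7IHG is given above. Of the 7 at day 5 only, MIRLET7A1HG had 18, MIR1915HG 14 and MIR4435-2HG 10.

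Most genes of the proteins that make and use microRNAs had a peak at day 5. Of 25 listed genes, 17 had a peak within 1 kb of an end at day 5 and 11 without doxycycline, 9 of them in both, beside 27.5% of all coding genes at day 5 and 14.5% without doxycycline. The nuclear step comes first. DDX5, an RNA helicase that works with DROSHA, had 43 fragments at day 5 (31.1 to 57.9) and 22 without doxycycline (13.8 to 33.3). SRRT, which links the cap-binding complex to hairpin processing, had 45 at day 5 (32.8 to 60.2) and 8 without doxycycline (3.45 to 15.8), but these peaks lay at opposite ends of the gene, at chr7:100889442-100890528 at day 5 and at chr7:100874535-100874972 without doxycycline, and are not the same place. KHSRP, which favours the cutting of some hairpins, let-7 among them, had 32 at day 5 and 28 without doxycycline.

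DROSHA itself had a peak without doxycycline only, of 6 fragments, and DGCR8, its partner, had none in either library. For the export step, RAN had 31 at day 5 and 13 without doxycycline, and XPO5, the carrier of hairpins, had 13 at day 5 only. DICER1 had 15 at day 5 only, and its nearest peak without doxycycline was 377 kb away. Its partners TARBP2, with 27 at day 5 and 21 without doxycycline, and PRKRA, with 16 at day 5 and 10 without doxycycline, had peaks in both.

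Among the effectors, the neighbours AGO1 and AGO3 shared 1 peak, which lies where the end of AGO1 meets the start of AGO3 and counts for both genes, with 8 fragments at day 5 and 9 without doxycycline. AGO2 and AGO4 had no peak. TNRC6B had 15 and TNRC6C 10 at day 5 only, and TNRC6A had none. TUT4, which adds uridines to let-7 precursors, had 14 at day 5 and 6 without doxycycline, in neighbouring peaks that did not overlap. At day 5 only, TUT7, an enzyme of the same kind, had 9, DIS3L2, the nuclease that destroys the tagged precursor, 11, the editing enzyme ADAR 11, and DDX17, the relative of DDX5, 7. TENT2 had 13 without doxycycline only. LIN28A and LIN28B, which block let-7 maturation, had none in either library.

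The 1 kb rule cut through a continuous range of distances. Just inside at day 5 were MIR1281 at 925 bp, MIR3649 at 948 bp and MIR6508 at 952 bp, and just outside MIR619 at 1008 bp, MIR4485 at 1028 bp and MIR1268A at 1041 bp. Without doxycycline MIR4716 at 914 bp, MIR191 at 932 bp and MIR936 at 954 bp lay inside, and MIR4485 at 1025 bp, MIR1282 at 1039 bp and MIR365A at 1062 bp outside. By chromosome the marked share at day 5 ran between 0.847% of 118 genes on chromosome X and 8.75% of 80 on chromosome 12. Chromosome 14, with 99 microRNA genes, had 1 marked at day 5 and 1 without doxycycline.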

How the data were processed

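Myc CUT&Tag peak lists of 2 libraries were used, grouped by their titles. The submitters' processing notes name MACS2, Bowtie2, Trim Galore and deepTools and the build hg38, without versions or settings. Whether a control entered the peak calls is not given in the sources used. The authors deposited 1 list per library, of 6953 peaks at day 5 and 3559 without doxycycline, with for each peak a score, a fold (ratio) over local background, and the summit's −log10 q-value and −log10 p-value. Depth is known only through the summits, since read totals were not given. From the deposited fold and −log10 p-value, whole numbers of summit fragments were recovered for 100% of peaks within 0.001 in −log10 p. This recovery, and the search within 1 kb, were tested on simulated data (100% of 200 planted genes found in each library). PCR duplicates cannot be seen.

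Gene spans, strands, start windows and mature sequences came from RefSeq (GRCh38.p14), with 1772 of 1911 microRNA genes and 15812 of 19970 coding genes having a strand. For a gene with several peaks within 1 kb, the one with the highest −log10 q-value gave its values. Scripts ran in Python 3.11.15 with pandas 2.3.3, NumPy 2.4.6, SciPy 1.17.1 and matplotlib 3.10.9.

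The members and gene lists were chosen with earlier results of these data known. Named were the 12 highest-ranked day 5 microRNA genes with and the 12 without a coding gene end within 1 kb, up to 8 listed in 1 library only, marked list members, the 3 just inside and outside 1 kb, and genes nearest their summits; 1 of them is not reported here. Hosts, named host transcripts, unmarked list members and the starts shown were added after their values were seen.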

Additional observations from a re-analysis of the deposited data

How the results depend on the processing

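Of the recomputed values, 110 stayed and 69 moved further. A share stayed when within its interval, a count when within 1.5 times and a ratio when between the main quartiles. The moved values came with settings that changed the window, the number of peaks or the reach of a gene end. For background shares the changed setting was the use of gene ends only. In every setting tried, the share was higher with a coding gene end within reach than without, in both libraries. Leaving out the peaks around MIR12136 on chromosome 1, or genes of identical mature strands, both chosen after seeing the data, moved no count by over 1.5 times.

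Cut to equal numbers of peaks, the day 5 list marked 49 genes, 32 (14.3%) with a coding end and 17 (1.01%) without, 17 at day 5 only and 11 without doxycycline only. The upper-ranked part of each list, with every peak below its median rank left out, marked 49 at day 5 and 21 without doxycycline: 32 (14.3%) and 16 (7.17%) with a coding end, 17 (1.01%) and 5 (0.296%) without, 19 in both, 30 at day 5 only and 2 without doxycycline only.

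Overlap of the hairpin itself left 32 at day 5 and 12 without doxycycline: 20 (8.97%) and 7 (3.14%) with a coding end, 12 (0.711%) and 5 (0.296%) without, 10 in both, 22 at day 5 only and 2 without doxycycline only. At 500 bp the day 5 share with a coding end was 20.6%. At 2500 bp 143 were marked at day 5 and 68 without doxycycline, 72 (4.27%) and 31 (1.84%) with no coding end, and 60 in both. At 10000 bp there were 317 at day 5 and 158 without doxycycline: 94 (42.2%) and 54 (24.2%) with a coding end, 223 (13.2%) and 104 (6.16%) without, 143 in both, 174 at day 5 only and 15 without doxycycline only.

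With a coding end counted within 500 bp, the share with one was 35.3% at day 5 and 21.0% without doxycycline, and 50 (2.79%) were marked without one at day 5. Within 2500 bp it was 17.9% at day 5 and 8.83% without doxycycline. Within 5000 bp it was 13.2% at day 5 and 6.35% without doxycycline, with 17 (1.26%) at day 5 and 7 without doxycycline marked without one.

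No paired analysis was possible because each condition has 1 Myc library. Summit fragments limit what can be seen: 26 of 56 genes listed at day 5 only and 4 of 7 listed without doxycycline only had under 10.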
